A study of Homo sapiens with 10 samples.

Results

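The expression of 43 genes of the actin cytoskeleton and of the transcriptional programs that read its state, those of serum response factor (SRF) and of the coactivator YAP, was followed in CH157-MN cells treated with an antibody-drug conjugate. The genes were taken by symbol from the deposited count table, which lists 58735 genes, and all 43 were found. They comprised 4 actins, 5 calponins and transgelins, 4 tropomyosins, 5 myosin chains, 5 filament crosslinkers and adhesion proteins, 4 genes of the FHL family and SRF, 2 genes of small GTPase signalling (RHOB and DLC1), 9 genes of the Hippo pathway and its TEAD partners, and 5 YAP targets. CH157-MN is an established human meningioma cell line. The ADC group (5 libraries) received 100 nM of a humanised antibody against the somatostatin receptor SSTR2 that carries monomethyl auristatin F (MMAF), a blocker of tubulin polymerisation, and was harvested on day 3. The PBS group (5 libraries) received phosphate-buffered saline, and the labels give no harvest day for it. All libraries came from this single line and were poly-T selected bulk RNA, so fewer cells of a kind and less RNA per cell cannot be told apart. No unconjugated antibody or free drug group was analysed here, so effects of the antibody and of its payload cannot be told apart.

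Actin exists as monomers and as filaments, and the balance is read by transcription factors. Monomeric actin holds the MRTF coactivators in the cytoplasm; when filaments assemble, MRTF enters the nucleus and joins SRF at a DNA element called the CArG box, which lies near many genes for actins, calponins, tropomyosins and SRF itself. YAP and its paralog TAZ (gene WWTR1) join TEAD proteins on DNA, and the kinases of the Hippo pathway keep both out of the nucleus. Tension on actin filaments favours nuclear YAP.

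The promoter letters of a few of these genes are shown because they carry the elements by which the genes are grouped further on. All are RefSeq sequences of assembly GRCh38.p14, read 5′ to 3′ on the strand of the gene, from the window of 250 bases before to 50 bases after an annotated start. Positions are counted from the base before the start, which is -1. In the next 5 sequences capitals mark CArG boxes. SRF has a pair of them, beginning at -30 and -10, and those of ACTG1, CNN2, TPM4 and FLNA begin at -94, -89, -173 and -94. The 50 bases after the start were found in a GENCODE release 29 transcript for 6 of the 7 printed windows, all but SRF. A match could lie anywhere in the transcript, so it does not place the start. In the count table SRF begins at chr6:43171299, downstream of the start used here. The printed stretches of ACTG1 and TPM4 lie inside the gene spans of the count table, and that of ANKRD1 does so in part.
SRF (chr6:43171169-43171268, plus strand): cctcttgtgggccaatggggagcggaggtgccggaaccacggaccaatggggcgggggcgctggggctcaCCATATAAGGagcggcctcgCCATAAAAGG
ACTG1 (chr17:81512840-81512939, minus strand): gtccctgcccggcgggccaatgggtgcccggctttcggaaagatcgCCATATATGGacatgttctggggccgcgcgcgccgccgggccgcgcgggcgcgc
CNN2 (chr19:1026478-1026577, plus strand): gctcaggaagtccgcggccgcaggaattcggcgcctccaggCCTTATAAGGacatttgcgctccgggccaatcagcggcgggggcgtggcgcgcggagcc
TPM4 (chr19:16067318-16067417, plus strand): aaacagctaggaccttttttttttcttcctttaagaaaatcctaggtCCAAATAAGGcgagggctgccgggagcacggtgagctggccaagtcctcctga
FLNA (chrX:154374675-154374774, minus strand): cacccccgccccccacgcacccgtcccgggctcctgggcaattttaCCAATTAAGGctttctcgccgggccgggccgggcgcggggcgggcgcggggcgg
In the YAP target ANKRD1, capitals mark GGAATG, the core of the TEAD element, which begins at -220 and at -128.
ANKRD1 (chr10:90921178-90921317, minus strand): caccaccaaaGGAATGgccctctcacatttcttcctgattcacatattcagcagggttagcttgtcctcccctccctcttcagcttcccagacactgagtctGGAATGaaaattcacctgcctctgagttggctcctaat
In RHOB, the member with the largest increase that passed the test, capitals mark CCAAT (at -115) and its reverse complement ATTGG (at -66), an element bound by the factor NF-Y.
RHOB (chr2:20446824-20447073, plus strand): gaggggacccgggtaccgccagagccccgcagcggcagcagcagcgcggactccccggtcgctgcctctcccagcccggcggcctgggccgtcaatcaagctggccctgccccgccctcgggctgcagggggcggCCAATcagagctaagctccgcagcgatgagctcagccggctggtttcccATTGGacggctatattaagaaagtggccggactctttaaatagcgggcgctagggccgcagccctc

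Levels are given as CPM, the counts scaled to an equal library total, after TMM factors were applied, a gene was called at an adjusted p under 0.05, and log2 fold changes, with their standard errors (SE), have ADC over PBS. Every adjusted p comes from edgeR's quasi-likelihood test with Benjamini-Hochberg adjustment over the 14504 genes tested, unless another tool is named. Of the 43 genes 41 had enough counts to be tested. After ADC treatment 7 were higher, 9 were lower and 25 were not called. Over all tested genes, 10.8% were called higher, 10% lower and 20.8% in either direction, against 17.1%, 22.0% and 39.0% of the 41. Most of the 41 are well expressed, and well-expressed genes are called more often. Among genes of at least 10 CPM 28.0% were called, against 15 of 38 of the named genes (39.5%). The 43 genes were chosen with earlier results of these data known, so an excess over these shares is no evidence about the group.

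The changes were small and ran both ways. The median log2 fold change of the 41 genes was 0.00, and the median size regardless of sign was 0.09, against 0.12 over all tested genes. Among genes of at least 10 CPM this size was alike, 0.090 for the named genes and 0.089 for all. Of the 16 called genes 14 changed by 1.249-fold or less, and LCP1 alone passed 2-fold. The levels of the groups did not overlap for 13 of the 41 genes, 5 of them higher and 8 lower after ADC, against 14.2% of all tested genes (7.29% higher and 6.95% lower). The 43 genes together took 2.19% to 2.27% of all counts in ADC libraries and the same range in PBS libraries.

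**Figure D1:**
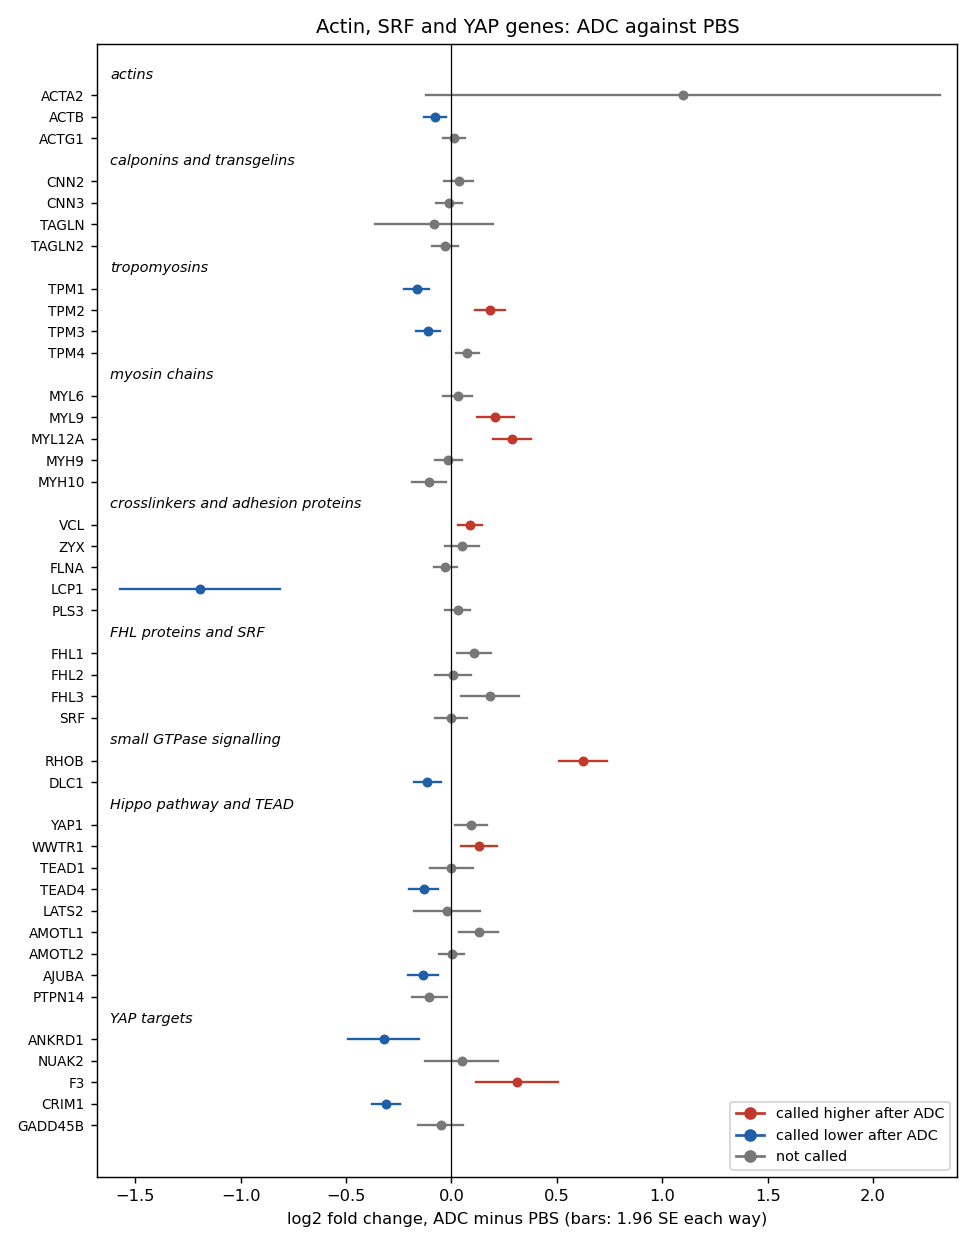
Log2 fold change (ADC minus PBS) of the 41 tested genes, grouped by role, with bars for the 95% interval; red genes were called higher, blue genes lower and grey genes neither. Most points lie near 0, LCP1 lies far to the left at -1.19 and RHOB to the right at 0.62, and ACTA2 has the widest bar.

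Total counts ran from 28638057 to 36463724 in ADC libraries and from 28262162 to 34473795 in PBS libraries, and TMM factors from 0.997 to 1.02 in ADC and from 0.979 to 1.001 in PBS libraries. At this depth a count of 0 allows up to 0.0823 to 0.106 CPM, counting error only, if each count is a separate fragment. Both mates of a pair may have been counted, and the limit would then be higher. The labels do not say that replicates were separate cultures, so the p-values may reflect technical spread alone. Of the meningioma and arachnoid markers VIM gave most of the summed level, 3534 to 3676 CPM in ADC and 3313 to 3600 CPM in PBS libraries, and PGR and SLC47A1 were at 0 in every library. The others of this list but NF2 lay under 1 CPM, among them SSTR2, the target of the antibody, at 0.429 ± 0.103 CPM in ADC and 0.297 ± 0.263 CPM in PBS libraries (not called, adjusted p = 0.496), and PTGDS and DSP, with means of 0 to 0.0426 CPM. Of the smooth muscle and pericyte markers DES was at 0, and the sum, most of it CSPG4, was 142 to 146 CPM in ADC and 138 to 150 CPM in PBS libraries. Of 5 tested (10 listed) RGS5 was called higher, at 1.34 ± 0.28 CPM in ADC and 0.674 ± 0.230 CPM in PBS libraries (log2 fold change 0.998, adjusted p = 0.0286). NOTCH3 was not tested and stood at 0.457 ± 0.300 CPM in ADC and 0.0238 ± 0.0531 CPM in PBS libraries, without overlap. Fibroblast markers summed to 383 to 450 CPM in ADC and 316 to 353 CPM in PBS libraries without overlap, with 4 of the 6 tested (8 listed) called higher. Endothelial markers summed to 6.46 to 7.999 CPM in ADC and 5.33 to 6.15 CPM in PBS libraries without overlap; of 4 tested (7 listed) PECAM1 was called higher, at 1.98 ± 0.34 CPM in ADC and 0.576 ± 0.112 CPM in PBS libraries (log2 fold change 1.77, adjusted p = 2.4e-05). Epithelial markers summed to 0.824 to 2.19 CPM in ADC and 0.647 to 1.37 CPM in PBS libraries, with none of 2 tested called and KRT5 at 0. The part of these markers in the results below was not tested. The counting tool's strand setting is not given in the sources used here, and 11 of the 43 genes share over 5% of their exonic bases with a gene on the opposite strand. Among the called ones these are TPM1 (21.4%), VCL (11.1%), WWTR1 (9.45%) and MYL12A (5.39%), whose counts may include the partner's reads.

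Of the actins, the cytoplasmic ones were among the most abundant transcripts, and beta-actin fell slightly. ACTB, which encodes beta-actin (chr7:5527147-5563784, hg38), had 5880, 6023, 5889, 6027 and 6205 CPM in the ADC libraries, against 6234, 6705, 6206, 6033 and 6482 CPM in the PBS libraries. The lowest PBS library, replicate 4, lay among the ADC libraries, so the groups overlapped. ACTB averaged 6005 ± 132 CPM in ADC and 6332 ± 263 CPM in PBS libraries (SD, n = 5 each), a log2 fold change of -0.08 (SE 0.03, adjusted p = 0.0376). The call was lost without ADC replicate 1, 2, 3 or 4 or PBS replicate 2 or 5 (adjusted p 0.0516 to 0.112), and also when libraries were scaled by their total alone (0.0970) or with no filter on low counts (0.0753). ACTG1, gamma-actin, averaged 4122 ± 90.2 CPM in ADC and 4087 ± 145 CPM in PBS libraries and was not called (0.01, adjusted p = 0.795). Per kilobase of merged exons ACTB stood at 1706 CPM in ADC and 1799 CPM in PBS libraries, and ACTG1 at 1377 and 1365 CPM in the same order. Processed copies of ACTB, 10 listed pseudogenes, held 0.0585% of its level in ADC and 0.0578% in PBS libraries.

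The share of each cytoplasmic actin, which no scaling of libraries can alter, differed between the groups by more than the spread within them. ACTB made up 59.3% ± 0.16 of the ACTB and ACTG1 counts in ADC libraries (59.2% to 59.6%) and 60.8% ± 0.27 in PBS libraries (60.5% to 61.2%; SD, n = 5 each), with no overlap. The shares of a family sum to the whole, and they are given without a test. A share within a pair shows unequal change, not which gene moved.

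The muscle actins were near the detection limit. ACTA2, smooth muscle alpha-actin, had 39, 7, 13, 0 and 17 counts in the ADC libraries and 7, 4, 2, 9 and 12 counts in the PBS libraries. ADC replicate 1 stood above all others, the groups overlapped, and the gene was not called (log2 fold change 1.10, SE 0.62, adjusted p = 0.228); it shares 30.1% of its exonic bases with opposite-strand genes. ACTG2, enteric smooth muscle actin, did not reach the count filter, with 2 to 8 counts in ADC and 0 to 8 counts in PBS libraries.

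The calponins and transgelins are actin-binding proteins, some of them SRF targets and some of them typical of smooth muscle. None of the 4 tested was called (20.8% of all tested genes were), so a count of 0 among 4 is no result about them. None had an unadjusted p under 0.05, against 4651 of all 14504 tested genes, and DESeq2 and limma-voom called none. TAGLN2, the most abundant, had 696, 726, 719, 715 and 731 CPM in the ADC libraries, against 694, 775, 731, 712 and 750.3 CPM in the PBS libraries. The range of the ADC libraries lay within that of the PBS libraries (log2 fold change -0.03, SE 0.03, adjusted p = 0.558). CNN2 (0.03), CNN3 (-0.01) and TAGLN (-0.08), the smooth muscle transgelin, had adjusted p-values of 0.548, 0.858 and 0.738. CNN1, the smooth muscle calponin, did not reach the filter, with 15, 11, 15, 8 and 2 counts in ADC and 0, 1, 2, 0 and 10 counts in PBS libraries. ADC replicates 1 to 4 lay above every PBS library but replicate 5, and with no filter the adjusted p of CNN1 was 0.117.

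The tropomyosins, coiled-coil proteins that lie along actin filaments and set which motors and severing factors reach them, moved in opposite directions. TPM1 (chr15:63042632-63071915) had 526, 507, 546, 513 and 530.0 CPM in the ADC libraries, against 585, 594, 596, 582 and 584 CPM in the PBS libraries. Every ADC library lay below every PBS library, and the log2 fold change was -0.17 (SE 0.03, adjusted p = 0.000103). TPM3 had 869, 912, 892, 880.1 and 912 CPM in the ADC libraries, against 932, 1002, 943, 962 and 986 CPM in the PBS libraries. It fell with no overlap, by a log2 fold change of -0.11 (SE 0.03, adjusted p = 0.00585). TPM2 (chr9:35681992-35690121) had 165, 165, 164, 155 and 174 CPM in the ADC libraries, against 142, 153, 146, 141 and 142 CPM in the PBS libraries. It rose with no overlap, by a log2 fold change of 0.18 (SE 0.04, adjusted p = 0.000458). TPM4 averaged 998 ± 20.8 CPM in ADC and 948 ± 17.5 CPM in PBS libraries without overlap, yet missed the threshold (0.07, SE 0.03, adjusted p = 0.0590). DESeq2 and limma-voom called TPM4 (adjusted p 0.0115 and 0.0185), as did scaling by total alone, a filter at 1 CPM and leaving out ADC replicate 5.

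Shares of all tropomyosin counts need no scaling, but they come from the same counts and sum to the whole. A fall of TPM1 and TPM3 raises the other shares, so they are no further evidence for TPM4. TPM4 held 38.7% ± 0.87 in ADC and 35.8% ± 0.61 in PBS libraries, and TPM2 held 6.37% ± 0.25 in ADC and 5.48% ± 0.16 in PBS libraries. TPM1 held 20.3% ± 0.60 in ADC and 22.2% ± 0.35 in PBS libraries, and TPM3 held 34.6% ± 0.56 in ADC and 36.5% ± 0.67 in PBS libraries (SD, n = 5 each). The groups overlapped for none of the 4. Each of these genes makes several isoforms from alternative exons and starts, and counts per gene do not separate them.

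**Figure D2:**
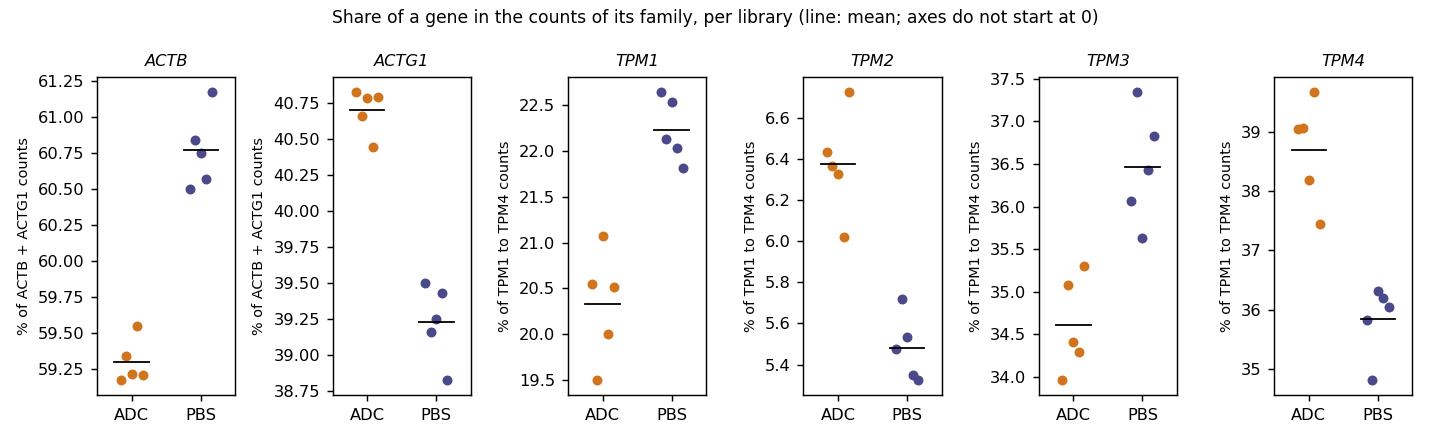
Percent of ACTB plus ACTG1 counts, and of TPM1 to TPM4 counts, held by each gene in the 5 ADC and 5 PBS libraries; points are libraries, lines are means, and axes do not start at 0. ACTB, TPM1 and TPM3 shares were lower in every ADC library than in any PBS library, and ACTG1, TPM2 and TPM4 shares were higher.

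Of the myosin chains, the regulatory light chain genes MYL12A and MYL9 rose and the heavy chains were not called. Another regulatory light chain gene, MYL12B, which is outside the 43 genes, was not called, at 180.0 ± 9.96 CPM in ADC and 184 ± 7.56 CPM in PBS libraries (-0.03, adjusted p = 0.618). MYL12A (chr18:3247481-3256236) had 70.4, 77.6, 75.0, 72.7 and 79.0 CPM in the ADC libraries, against 56.6, 62.6, 63.1, 61.6 and 63.5 CPM in the PBS libraries. Every ADC library lay above every PBS library, and the log2 fold change was 0.29 (SE 0.05, adjusted p = 2.4e-05). MYL9 (chr20:36541484-36551447), whose product is phosphorylated to start contraction, had 79.0, 75.2, 71.3, 68.2 and 74.4 CPM in the ADC libraries, against 61.3, 64.5, 63.5, 63.9 and 65.9 CPM in the PBS libraries. It also rose without overlap, by 0.21 (SE 0.04, adjusted p = 0.000997). The essential light chain MYL6 was not called (0.03, adjusted p = 0.607). MYH9, the heavy chain of myosin IIA, averaged 1364 ± 63.4 CPM in ADC and 1377 ± 61.4 CPM in PBS libraries (-0.01, adjusted p = 0.813). MYH10, that of myosin IIB, had a log2 fold change of -0.11 (adjusted p = 0.0580), with a call from DESeq2 (0.0475) and without ADC replicate 1 (0.0313).

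Among crosslinkers and adhesion proteins, LCP1 had the largest change of all called genes of the group. LCP1 (chr13:46125920-46211871) encodes L-plastin, an actin-bundling protein typical of blood cells and found in many tumour lines. It had 1.53, 2.98, 1.87, 2.09 and 2.56 CPM in the ADC libraries, against 5.50, 7.05, 4.80, 4.56 and 3.32 CPM in the PBS libraries. Every ADC library was below every PBS library, the ADC mean was 2.29-fold lower, and the log2 fold change was -1.19 (SE 0.19, adjusted p = 3.0e-05). The level was low: 53 to 109 counts lay behind each ADC value and 113 to 238 behind each PBS value. Its paralog PLS3, the bundler of solid tissues, averaged 314 ± 5.45 CPM in ADC and 308 ± 7.25 CPM in PBS libraries and was not called (0.03, adjusted p = 0.560). LCP1 was 0.697% ± 0.179 of the counts of this pair in ADC and 1.61% ± 0.41 in PBS libraries. Of 13 leukocyte markers 3 had enough counts to be tested, and none of these was called by edgeR or had an unadjusted p under 0.05. Over all 14504 tested genes 4651 had such a p. CD3E, LYZ and TYROBP were at 0 in every library, and the summed level was 19.7 to 27.2 CPM in ADC and 22.5 to 25.6 CPM in PBS libraries, most of it LAPTM5.

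Vinculin (VCL), which ties adhesions to actin, averaged 648 ± 19.9 CPM in ADC and 610 ± 9.35 CPM in PBS libraries and was called higher (0.09, SE 0.03, adjusted p = 0.0323), with overlapping groups. That call was lost without ADC replicate 1, 3 or 4 or PBS replicate 2, 3 or 4 (adjusted p 0.0551 to 0.0664) and with no filter (0.0805). The adhesion protein zyxin (ZYX, 0.05) and the crosslinker filamin A (FLNA, -0.03) had adjusted p-values of 0.438 and 0.528.

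SRF itself was not called. It had 129, 112, 123, 129 and 122 CPM in the ADC libraries, against 120.2, 127, 126, 124 and 119.5 CPM in the PBS libraries. The means were 123 ± 6.8 CPM in ADC and 123 ± 3.2 CPM in PBS libraries, and the 95% interval of the log2 fold change ran from -0.08 to 0.07 (adjusted p = 0.983). The LIM-domain cofactors FHL1 (0.11), FHL2 (0.01) and FHL3 (0.18) were not called, with adjusted p-values of 0.0668, 0.933 and 0.0673. Of these 4 genes 2 had an unadjusted p under 0.05, against 4651 of all 14504 tested genes. DESeq2 called FHL3 (adjusted p = 0.0412), and limma-voom called none. FHL1 was called without ADC replicate 3 or 4, and FHL3 without ADC replicate 2 or PBS replicate 2.

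RHOB and DLC1 both changed, in opposite directions. RHOB, a small GTPase whose gene answers quickly to stress, is a gene of a single exon at chr2:20447074-20449445, just after the promoter printed above. It had 60.2, 48.6, 50.6, 58.0 and 57.8 CPM in the ADC libraries, against 33.5, 37.2, 35.98, 35.5 and 36.5 CPM in the PBS libraries. The lowest ADC library stood well above the highest PBS library, and RHOB was 1.54-fold higher (log2 fold change 0.62, SE 0.06, adjusted p = 1.8e-09). DLC1, a GTPase-activating protein, averaged 190 ± 4.13 CPM in ADC and 205 ± 8.32 CPM in PBS libraries without overlap (-0.11, SE 0.03, adjusted p = 0.0144). Its call was lost without PBS replicate 3 (0.0621) and with scaling by total alone (0.0609).

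In the Hippo pathway, TAZ rose slightly, and TEAD4 and AJUBA fell. WWTR1, the gene for TAZ (chr3:149517235-149736714), had 88.8, 83.2, 88.2, 84.4 and 77.6 CPM in the ADC libraries, against 76.1, 75.0, 77.5, 82.7 and 74.2 CPM in the PBS libraries. PBS replicate 4 was above the lowest ADC library, so the groups overlapped (0.13, SE 0.04, adjusted p = 0.0299). The call was lost without ADC replicate 1 or 3 or PBS replicate 1, 2 or 5 (adjusted p 0.0552 to 0.0910). YAP1 averaged 149 ± 8.0 CPM in ADC and 140 ± 6.4 CPM in PBS libraries and missed the threshold (0.09, SE 0.04, adjusted p = 0.101). Without ADC replicate 5 YAP1 was called (0.13, adjusted p = 0.0174). The YAP1 share of YAP1 and WWTR1 counts was 63.9% ± 0.95 in ADC and 64.5% ± 0.76 in PBS libraries, with overlap.

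TEAD4 (chr12:2959330-3040673), a DNA-binding partner of YAP and TAZ, had 116, 117, 116, 119 and 121 CPM in the ADC libraries, against 125, 130.2, 134, 124 and 132 CPM in the PBS libraries. Every ADC library lay below every PBS library (-0.13, SE 0.04, adjusted p = 0.00784). TEAD1 averaged 237 ± 24.4 CPM in ADC and 237 ± 17.6 CPM in PBS libraries and was not called (adjusted p = 0.986). AJUBA (chr14:22971174-22982642), a LIM protein that binds and restrains the LATS kinases, had 95.8, 101, 99.3, 103 and 99.0 CPM in the ADC libraries, against 112, 106, 111, 107 and 111 CPM in the PBS libraries. It fell without overlap (-0.14, SE 0.04, adjusted p = 0.00720). The kinase LATS2 (-0.02), the angiomotins AMOTL1 (0.13) and AMOTL2 (0.00), which hold YAP in the cytoplasm, and the phosphatase PTPN14 (-0.11) were not called. AMOTL1 lay at the edge (adjusted p = 0.0518) and was called by DESeq2 (0.0293) and without ADC replicate 3 or 5 or PBS replicate 5. PTPN14 (adjusted p = 0.0731) was called without ADC replicate 4 or PBS replicate 2.

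The YAP targets did not move together. ANKRD1 (chr10:90912096-90921276), whose printed promoter stretch with its pair of TEAD core motifs lies partly inside this span, encodes a stress-responsive ankyrin-repeat protein. It had 10.8, 13.3, 11.98, 10.6 and 12.05 CPM in the ADC libraries, against 14.3, 14.6, 15.8, 14.8 and 14.1 CPM in the PBS libraries. It fell without overlap (log2 fold change -0.32, SE 0.09, adjusted p = 0.00730). CRIM1 (chr2:36355926-36551135), a membrane protein that binds bone morphogenetic proteins, had 338, 340.1, 333, 345 and 307 CPM in the ADC libraries, against 399, 404, 411, 431 and 415 CPM in the PBS libraries. It fell with a wide gap between the groups (-0.31, SE 0.03, adjusted p = 4.0e-08). F3 (chr1:94529225-94541800), tissue factor, the cell-surface starter of blood clotting, had 13.6, 11.4, 14.9, 14.7 and 16.1 CPM in the ADC libraries, against 13.8, 10.7, 10.5, 10.99 and 10.8 CPM in the PBS libraries. PBS replicate 1 lay within the ADC range, and F3 was called higher (0.31, SE 0.10, adjusted p = 0.0240), a call that was lost without ADC replicate 3 or 5 or PBS replicate 2, 3 or 5 (adjusted p 0.0506 to 0.0737). The kinase NUAK2 (0.05, adjusted p = 0.761) and GADD45B (-0.05, adjusted p = 0.564) were not called.

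**Figure D3:**
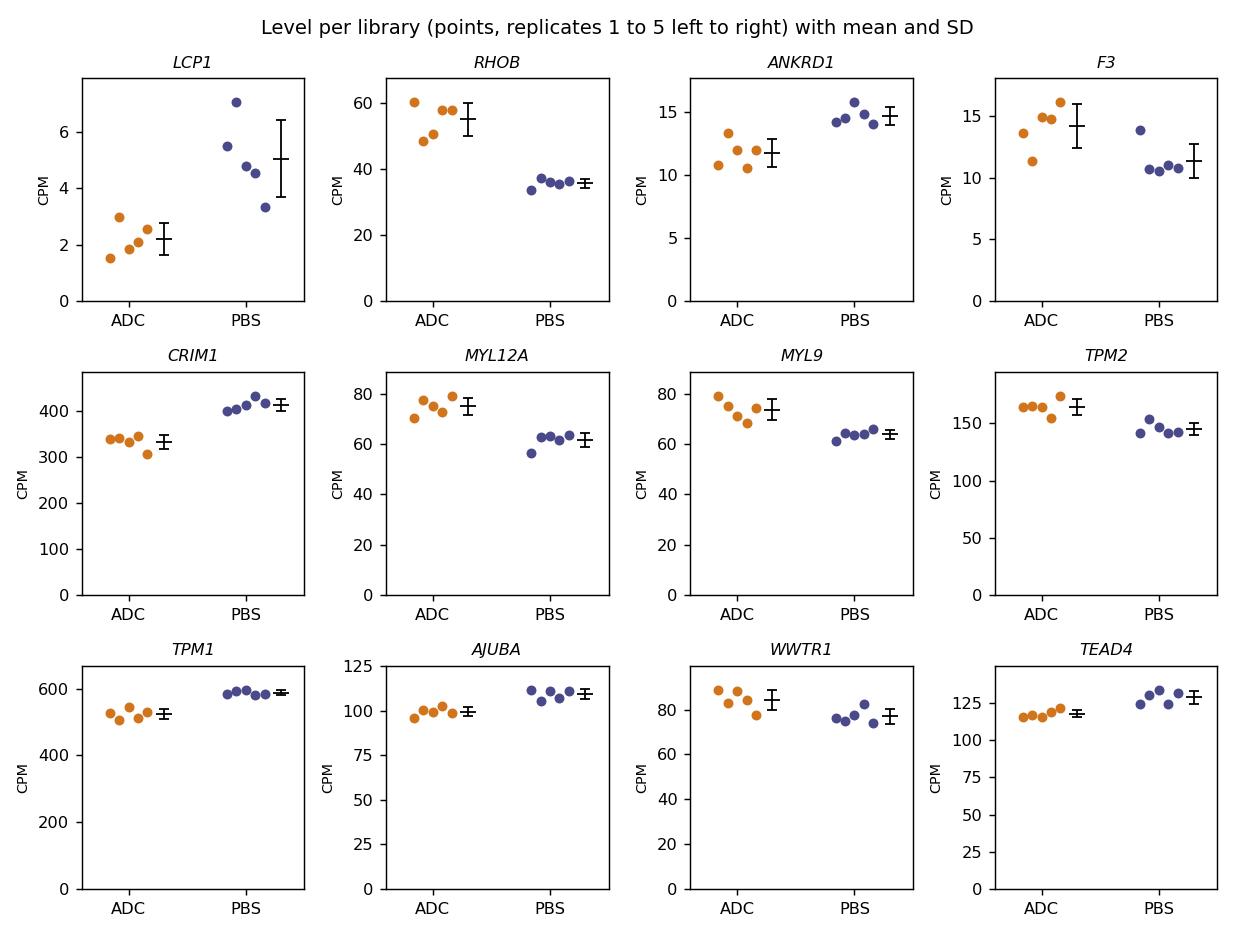
CPM per library (points, replicates 1 to 5 from left to right) with the mean and SD beside them for the 12 called genes with the largest change, ADC left of PBS. The groups overlapped for F3 and WWTR1, and ADC libraries were all higher (RHOB, MYL12A, MYL9, TPM2) or all lower (LCP1, ANKRD1, CRIM1, TPM1, AJUBA, TEAD4) for the other genes.

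The genes were then set beside their promoter motifs. RefSeq windows matched 36 of the 43 symbols; those of ACTB, CRIM1, DLC1, MYL9, TAGLN, TEAD1 and TEAD4 did not match, and 5 of these 7 were called (ACTB, CRIM1, DLC1 and TEAD4 lower, MYL9 higher), so the motifs of those genes were not read. A CArG box lay in 10 of the 65 windows of these genes (15.4%), against 1.29% of all 35116 windows, and GGAATG on either strand in 15 (23.1%), against 14.0%. CCAAT, as in RHOB, was common, on either strand in 34.6% of all windows. The 7 tested genes with a CArG box (ACTG1, CNN2, FHL1, FHL2, FLNA, SRF and TPM4) included no called gene, with log2 fold changes of -0.03 to 0.11; the share called was 20.8% over all tested genes, so a count of 0 among 7 is no result about them. Of these 7 genes 2, FHL1 and TPM4, had an unadjusted p under 0.05, against 4651 of all 14504 tested genes. DESeq2 and limma-voom called TPM4. Among the 27 tested genes with windows but no CArG box found in them 6 were higher and 5 lower. The box was searched only as CC, 6 letters of A or T, and GG, with no mismatch allowed. Boxes of another spelling or outside the window were not read, so these genes may still hold some. Of the 15 with GGAATG, MYL12A and VCL were higher and AJUBA and ANKRD1 lower, and of the 19 without it 4 were higher and 3 lower. A match says only that the letters are present in the window, and these counts were not tested.

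**Figure D4:**
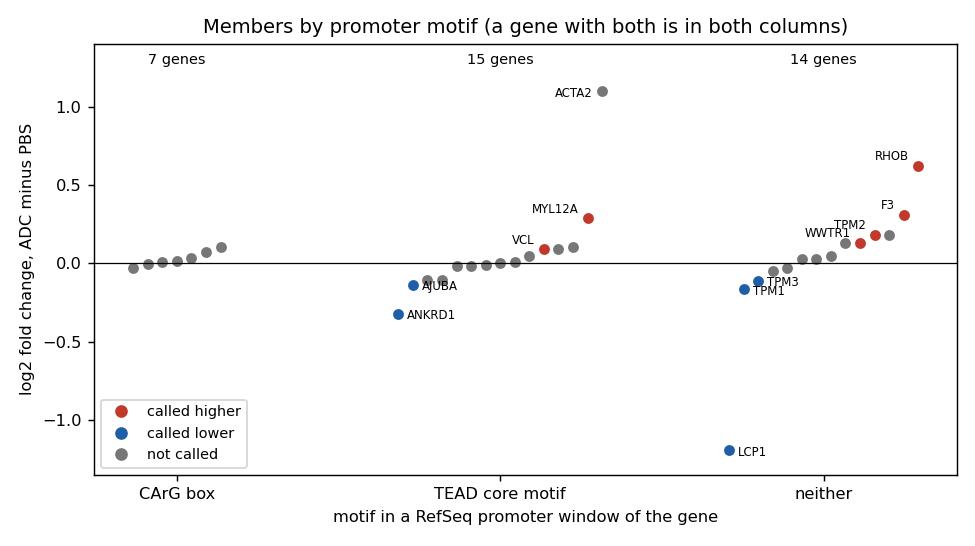
Log2 fold change (ADC minus PBS) of tested genes with a RefSeq promoter window, by whether a window holds a CArG box, the TEAD core motif GGAATG or neither; FHL1 and FHL2 hold both and appear under each. All 7 CArG box genes are grey (not called) and lie between -0.03 and 0.11, while called genes (red higher, blue lower) appear in the other columns.

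Further genes of the same pathways were read from lists, some of which share genes. Over all tested genes 20.8% were called, and 28.0% of those of at least 10 CPM. A share near these is no result about a list, and no list was tested as a set. All lists were chosen with earlier results of these data known, so a share above these is no evidence about a list either. Of 14 tested further MRTF-SRF targets 7 were higher and 1 lower (57.1% called), with a median log2 fold change of 0.14. The higher ones included FILIP1L, a filamin-interacting protein, at 1.21 ± 0.32 CPM in ADC and 0.483 ± 0.336 CPM in PBS libraries (1.33, SE 0.40, adjusted p = 0.0147), a low level whose call was lost without ADC replicate 1 (0.0505). The lower one was smoothelin, SMTN (-0.14, adjusted p = 0.0290), which was lost without ADC replicate 1, 2 or 4 or PBS replicate 1 or 2, while without ADC replicate 5 the list had 2 lower genes. Of 5 tested coactivators and ternary complex factors, which partner SRF, edgeR called none, DESeq2 called 1 lower and limma-voom none. Without ADC replicate 4 edgeR called 1 lower. Of these 5 genes 1 had an unadjusted p under 0.05, against 4651 of all 14504 tested genes. Of 5 tested early genes of the ternary complex factors EGR1 alone was called, at 27.8 ± 2.56 CPM in ADC and 15.4 ± 1.248 CPM in PBS libraries (0.85, SE 0.08, adjusted p = 9.3e-10). The share called was 20% of these early genes.

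Of 19 tested further YAP-TEAD targets 7 were higher and 5 lower (63.2% called, against 20.8% of all tested genes), with a median log2 fold change of 0.11. This list too was chosen with earlier results of these data known. NT5E, the ectonucleotidase CD73, rose most (0.33, adjusted p = 2.6e-09). IGFBP3, a binding protein of insulin-like growth factors, fell to 89.4 ± 1.77 CPM in ADC libraries, against 156 ± 4.83 CPM in PBS libraries (-0.81, adjusted p = 1.2e-16). Of the canonical pair CTGF was higher (0.20, adjusted p = 4.5e-05) and CYR61 was not called (0.00); these were named after their values were seen. Of 24 tested Hippo kinases and regulators 1 was higher, the kinase MAP4K4 (0.20, adjusted p = 2.2e-05), and 2 were lower, the cadherins FAT1 (-0.14, adjusted p = 0.0250) and FAT4 (-0.26, adjusted p = 0.0202). The share called in this Hippo list was 12.5%, against 20.8% of all tested genes. The FAT4 call was lost without ADC replicate 5 or PBS replicate 5. The number of lower Hippo genes was 0 without ADC replicate 5 and 1 without ADC replicate 2 or 3 or PBS replicate 5. That of higher ones was 2 without ADC replicate 2, 3 or 5 or PBS replicate 4, and 3 without PBS replicate 2.

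Of 34 tested genes of actin nucleation, turnover and monomer binding 8 were higher and 3 lower (32.4% called). Among all genes of at least 10 CPM the share was 28.0%. The severing protein gelsolin, GSN, rose most (0.45, adjusted p = 7.1e-07), and CAPZA1, a subunit of the filament-capping protein, fell most (-0.21, adjusted p = 7.8e-06). Of 26 tested focal adhesion and stress fibre genes 6 were higher, led by TNS3 (0.30, adjusted p = 0.000195), and 4 lower, led by TNS1 (-0.26, adjusted p = 0.0104), both tensins that link integrins to actin. The share called of the focal adhesion and stress fibre genes was 38.5%. Of 20 tested paralogs of the 43 genes 2 were higher and 1 lower (15% called, against 20.8% of all tested genes). The lower one was filamin C, FLNC, at 557 ± 52.0 CPM in ADC and 776 ± 15.7 CPM in PBS libraries (-0.48, adjusted p = 3.2e-10), and the higher ones included GADD45A, a stress-response gene (0.29, adjusted p = 6.9e-06). Without PBS replicate 2, 4 paralogs were higher, and without ADC replicate 5 or PBS replicate 5, 2 were lower.

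**Figure D5:**
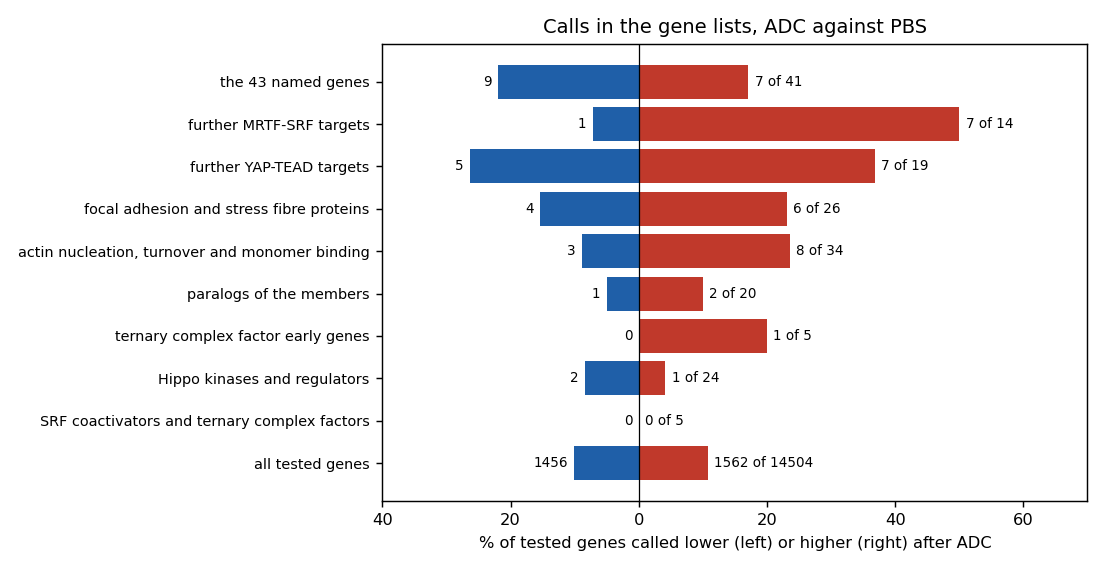
Percent of tested genes called lower (blue, left) or higher (red, right) after ADC for the 43 genes, the further lists and all tested genes, with counts beside the bars. The 43 genes had 9 lower and 7 higher of 41, further MRTF-SRF targets 1 lower and 7 higher of 14, and all tested genes 1456 lower and 1562 higher of 14504.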

How the data were processed

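Bulk RNA sequencing of CH157-MN cells gave 5 ADC and 5 PBS libraries. Per the labels' protocols, RNA was selected with poly-T beads and primed with random hexamers. The authors deposited whole-number counts per gene, not normalised, and a gene length (bases of merged exons) for 58735 genes. Per the submitters' processing notes the build is hg38, and the tools named are HISAT2, HISAT and TopHat2, with no role stated. Which counter, strand setting and annotation were used is not given in the sources. Every identifier matched GENCODE release 29. Small counts were even in 65.4% to 67.3% of cases, so both mates of a pair may have been counted.

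Counts were scaled with TMM factors, filterByExpr removed low genes (minimum count 10, minimum total 15), and ADC was compared with PBS in R 4.3.3 with edgeR 4.0.16 (quasi-likelihood test, two-sided; Benjamini-Hochberg adjustment; threshold 0.05). The SE is the absolute log2 fold change over the square root of F. The common coefficient of variation was 7.60%. Libraries of a group differed beyond sampling noise (chi-square over its degrees of freedom, 5.18 to 16.5). The procedure was tested on simulated data. Alternatives were DESeq2 1.42.0, limma-voom (limma 3.58.1), other scaling and filters, halved counts, a replicate block and leaving out each library.

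The 43 genes and all lists were chosen with earlier results of these data known. Values per library are given for the 12 called genes with the largest change, and for the most abundant gene in each role without one. From each list the text names the called gene outside the 43 with the largest change in each direction, at 1 CPM or more. ACTA2, ACTG2, CNN1, TPM3 and a few list genes are named beyond that rule, after their values were seen. A gene list and a few list genes are not reported here.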

Additional observations from a re-analysis of the deposited data

Results flagged for a closer look

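In 6 groups of 5 libraries, of 124 examined, 1 library lay far from the other 4, with a gap to the nearest above 0.71 of the group's whole range; chance gives about 1 in 20. CNN1, the smooth muscle calponin, stood at 0.294 CPM in PBS replicate 5 and at 0 to 0.0681 CPM in the other PBS libraries. F3 stood at 13.8 CPM in PBS replicate 1, against 10.5 to 10.99 CPM in the others. MYL12A stood low in the same library, at 56.6 CPM against 61.6 to 63.5 CPM. MYL6 stood at 241 CPM in PBS replicate 2, against 219 to 223 CPM. FILIP1L stood at 1.06 CPM in PBS replicate 4, against 0.178 to 0.408 CPM. FLNC stood at 646 CPM in ADC replicate 4, against 516 to 552 CPM in the other ADC libraries.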

How the results depend on the processing

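Among the 43 genes and the list genes named by the rule, no called log2 fold change changed sign under the alternatives run; other genes were not followed across them. AJUBA, ANKRD1, CRIM1, LCP1 (log2 fold change -1.33 to -1.04), MYL12A, MYL9, RHOB (0.59 to 0.67), TEAD4, TPM1, TPM2 and TPM3 passed the threshold under every alternative. Scaling by library total alone called 11 of the 43 genes higher and 7 lower, and of all genes called 63.3% were then higher, against 51.8%; it moved the median log2 fold change of all genes to 0.02. DESeq2 called 10 higher and 10 lower, limma-voom 8 and 9, RLE size factors 7 and 9, no filter 6 and 9, a filter at a mean of 1 CPM 9 and 9, and halved counts 8 and 9. Leaving out each library in turn gave 5 to 9 higher and 8 to 9 lower, with 2491 to 2980 genes called, against 3018. In ADC replicate 5 genes of 8000 bases or more lay a median log2 of -0.05 from their group mean. Genes under 3000 bases lay 0.05 from it, and in PBS replicate 2 these medians were -0.04 and 0.06. They were the largest of any library, and their part in the calls was not tested. Same-numbered libraries did not deviate together (r -0.01 to 0.04, and 1 of 5 correlated best with its own number). This gave no sign of pairing by number but cannot exclude it. The replicate block called 3152 genes, 8 of the 43 higher and 10 lower, with TPM4 and PTPN14 added. Depth limits ACTA2, ACTG2 and CNN1, with 39 counts or fewer per library.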
